A study of Homo sapiens with 3 samples.

Results

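The Toll-like receptors TLR1 to TLR10 are the 10 human members of a family of innate immune receptors, and their transcripts were measured in THP-1 macrophages by 12 probes. The members were chosen by their gene symbols among the 22705 genes on the array that carry a RefSeq symbol. THP-1 is a human monocytic leukemia line, and all 3 groups were first turned into macrophages with the phorbol ester PMA at 100 ng/ml for 24 to 36 h. The groups were macrophages without further treatment (Ctrl), macrophages given imiquimod (IMQ), and macrophages given IMQ together with a compound that the label writes as X. X was read as DMD, a dimethoxy-methyl benzenediol isolated from the mushroom Antrodia cinnamomea, because the treatment protocol names no other compound and describes DMD as given ahead of IMQ. This group is called IMQ+DMD here. The labels give 4 h for every group and state no dose of IMQ or DMD, while the general methods of the study describe a longer exposure to IMQ. Each group was 1 culture read on 1 one-color array, and all 3 arrays lay on 1 slide, so no difference has a replicate check and no p-value is given. The study wanted to know how DMD alters macrophages activated by IMQ, and it describes IMQ as a ligand of TLR7, 1 of these receptors. Whether the receptors start the activation in these cultures was not tested.

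Toll-like receptors sense molecules of microbes and of damaged cells. TLR1, TLR2, TLR4, TLR5, TLR6, and TLR10 work mainly at the cell surface, where TLR2 pairs with TLR1 or TLR6 to bind lipopeptides, TLR4 senses lipopolysaccharide with the help of CD14 and LY96 (MD-2), and TLR5 senses flagellin. TLR3, TLR7, TLR8, and TLR9 signal from endosomes, where TLR3 senses double-stranded RNA, TLR7 and TLR8 sense single-stranded RNA, and TLR9 senses unmethylated CpG DNA. IMQ is a small-molecule agonist of TLR7, and related imidazoquinolines also activate TLR8. TLR1, TLR2, and TLR4 to TLR9 signal through the adaptor MYD88, and TLR3 and internalized TLR4 signal through TICAM1 (TRIF).

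The probes were 60 bases long, and each was printed as 1 spot per array. The letters below are the last 30 bases of the probes on which the main results rest, 5′ to 3′ as deposited, and they show which stretch of each transcript was read.
TLR7: tgcatgtgttcaagccttagattggcgatg
TLR8: ttaagtcatgatttcgcgccatAATAAAga
TLR3: atgtttaaatctcactgcatcttgaactgg
TLR2: ctttgtctagttgggatctttatgtcacta
TLR4, probe A_32_P66881: gagcaggtctagggtgattgaacatccctg
TLR4, probe A_24_P69538: tgggtacaggatgcaattggcaggaagcaa
TLR5, probe A_33_P3263423: ataagaacatactagaagtcccttctgcta
TLR5, probe A_23_P85903: agacacttccttagagatggctggtgcctt
Capitals mark AATAAA, the hexamer of most polyadenylation signals, which ended 2 bases before the end of the TLR8 probe. The hexamer was present in 1 of the 12 receptor probes and in 4567 of all 58201 transcript probes (7.85%), on the strand of the probe. No 20-base stretch of a receptor probe was shared with a probe of another gene (0 such probes). The GC content of the receptor probes ranged from 35% to 55%.

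On the hg19 positions in the scanner files, the TLR7 probe lies at chrX:12908260-12908319 and the TLR8 probe at chrX:12940262-12940321, both on the plus strand. TLR7 and TLR8 are direct neighbors on that chromosome in the RefSeq annotation. The TLR3 probe lies at chr4:187005890-187005949 and the TLR2 probe at chr4:154626406-154626465, again on the plus strand. TLR4 was read at chr9:120479236-120479295 (A_32_P66881) and at chr9:120476856-120476915 (A_24_P69538) on the plus strand. TLR5 was read at chr1:223305827-223305886 (A_33_P3263423) and chr1:223284067-223284126 (A_23_P85903) on the minus strand, which the files place at bases 567 and 2888 of the transcript. The genes TLR10, TLR1, and TLR6 stand next to one another on chromosome 4, with probes at chr4:38774560-38774619, chr4:38798013-38798072, and chr4:38828533-38828592 on the minus strand. The TLR9 probe lies at chr3:52255525-52255584 on the minus strand. Coding and untranslated parts of the transcripts were not assigned here.

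Between 66.6% and 72.0% of the probes were rated well above background by the scanner software, and the IMQ array had the lowest share. Its median processed intensity was 61.8, against 94.5 on the Ctrl array and 76.4 on the IMQ+DMD array. Values below are quantile-normalized intensities of the authors unless a log2 scale is named, and a level is compared between arrays for a given probe, with no order of levels read between genes. A spot not well above background has only an upper limit, for which the lowest normalized intensity of a detected probe on that array was used as a floor (16.5 on Ctrl, 23.8 on IMQ, and 16.9 on IMQ+DMD). Errors are the SD expected from repeated spots of the same brightness, measured before normalization between arrays, and they cover noise within an array only. For dim spots they rest on few repeated probes. Of the 36 receptor spots, 29 were well above background, none was saturated (0), and none carried an outlier mark (0). Of the monocyte and macrophage markers matched by symbol, 6 of 6 were well above background on every array (CD14, CSF1R, ITGAM, SPI1, FCGR1A, and TYROBP). Their summed intensity was 514521 on Ctrl, 438790 on IMQ, and 420772 on IMQ+DMD. Signal for markers of cells that the line should not hold was also read, with all 5 B cell markers well above background on each array (summed intensity 3899 to 4798), all 5 T cell markers (662 to 773), 4 or 5 of 5 plasmacytoid dendritic cell markers (4110 to 5521), and 3 or 4 of 5 keratinocyte markers (17833 to 18889). Detection alone therefore does not tell cell types apart here. A single gene made up a large part of each sum. KRT10 gave 99.1% to 99.4% of the keratinocyte sum and CD79A gave 86.5% to 87.8% of the B cell sum. TYROBP gave 46.1% to 54.0% of the monocyte and macrophage sum, and CD3D gave 42.9% to 45.9% of the T cell sum. For plasmacytoid dendritic cells the brightest marker gave 44.2% (IL3RA, IMQ+DMD) to 76.5% (TCF4, Ctrl). TP63 was not well above background on any array, and CLEC4C was not on the IMQ+DMD array. The part of other cells in the receptor values was not tested, and in RNA from a whole culture fewer cells of a type cannot be told apart from less RNA per cell.

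**Figure D1:**
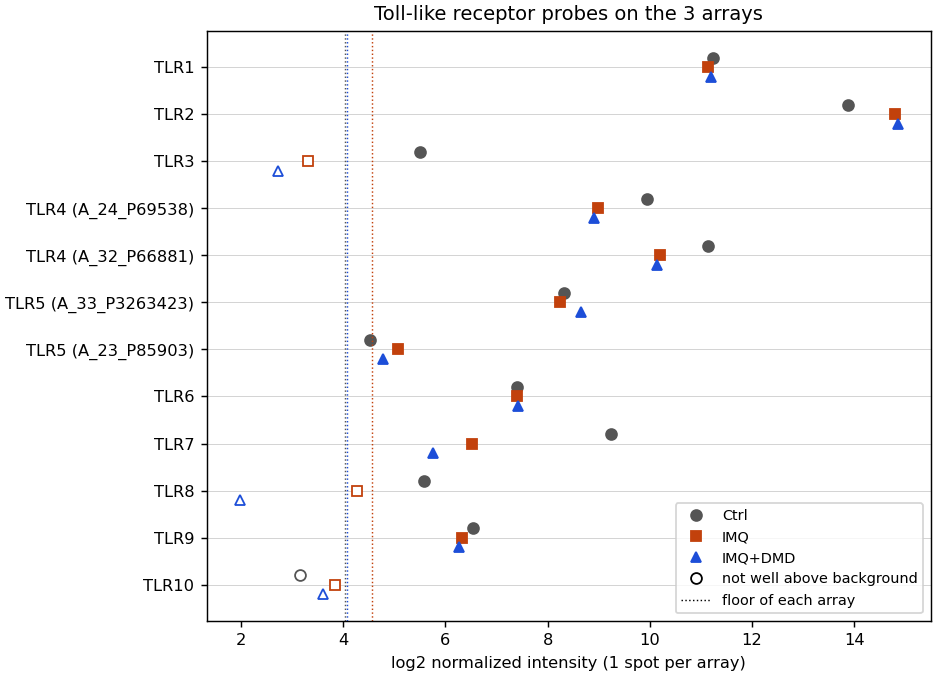
Log2 normalized intensity (x axis) of the 12 Toll-like receptor probes (rows) on the Ctrl, IMQ, and IMQ+DMD arrays, 1 spot each. Open symbols were not well above background, and dotted lines are the floors of the arrays. TLR7 is far to the left on both IMQ-treated arrays (605, 91.3, and 53.8), TLR2 is to the right on both, and TLR3 and TLR8 are detected on the Ctrl array only.

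TLR7, the receptor for which IMQ is an agonist, had the largest difference among the receptors with a measured difference, while TLR3 and TLR8 have bounds only and cannot be ranked against it. Its normalized intensity was 605 in Ctrl, 91.3 with IMQ, and 53.8 with IMQ+DMD, well above background on each array. The Ctrl value stood far above the other 2, and that with IMQ+DMD was the lowest. The level after IMQ was 15.1% of that of the untreated macrophages, a log2 difference of -2.73 ± 0.17 or 6.63-fold lower. Across the 19197 genes compared, 15 were lower by as much or more (0.0781%), TLR7 included. With IMQ+DMD the level was 8.88% of Ctrl, a log2 difference of -3.49 ± 0.22 or 11.3-fold lower, and 12 of 19831 genes were lower by as much (0.0605%). Over the 6 scalings this log2 difference ranged from -3.76 to -2.43, the smallest with normexp background correction. TLR7 was also lower with IMQ+DMD than with IMQ alone, by 1.70-fold (log2 difference -0.76 ± 0.27). That was 2.83 times the noise of repeated spots, a noise measured before normalization between arrays, where the log2 difference was -0.46. The 1.70-fold difference was short of 2-fold, and 442 of 19136 genes were lower by as much (2.31%). The order Ctrl, IMQ, IMQ+DMD from high to low held under all 6 scalings of the arrays, but the difference between the last 2 shrank to -0.28 with scaling to spike-in controls.

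TLR8, the neighbor of TLR7 and also a sensor of single-stranded RNA, was detected on the Ctrl array only. Its intensity was 47.6 there, against 19.2 with IMQ and 3.95 with IMQ+DMD, neither well above background. Against the floors, TLR8 was at least 2.81-fold lower with IMQ+DMD than in Ctrl, by the normalization of the authors. Its bound after IMQ alone lay marginally short of the 2-fold call. These bounds were 2.95 and 2.85 times the noise of repeated spots, which few repeated probes give at this brightness. With normexp background correction the bounds shrank to log2 differences of -0.54 and -0.43, where its offset by itself draws dim values together. No difference between the IMQ and IMQ+DMD arrays can be given for TLR8, since both spots were below detection.

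TLR3, the sensor of double-stranded RNA, had the same pattern of detection. Its intensity was 45.4 on the Ctrl array, against 9.95 on IMQ and 6.59 on IMQ+DMD, and only the first spot was well above background. It was therefore at least 1.91-fold lower with IMQ and at least 2.68-fold lower with IMQ+DMD than in Ctrl, by the normalization of the authors. These bounds were 1.84 and 2.82 times the noise of repeated spots, which again rests on few repeated probes. With normexp background correction and its offset the bounds shrank to log2 differences of -0.44 and -0.49. The larger bound for IMQ+DMD came from the lower floor of that array (16.9 against 23.8) and does not order the 2 treated groups.

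TLR9, the receptor of CpG DNA, differed little. Its intensity was 92.9 on Ctrl, 79.7 on IMQ, and 76.9 on IMQ+DMD. The log2 difference was -0.22 ± 0.24 after IMQ and -0.05 ± 0.24 between IMQ+DMD and IMQ, each smaller than the noise of repeated spots.

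Among the surface receptors, TLR2 was the only one that was higher after IMQ by more than the noise in its main probe. Its intensity was 15124 on Ctrl, 28457 on IMQ, and 29492 on IMQ+DMD. The log2 difference was 0.91 ± 0.06 (1.88-fold) for IMQ against Ctrl and 0.96 ± 0.06 (1.95-fold) for IMQ+DMD against Ctrl, both just under the 2-fold call. Across all genes compared, 979 of 19197 were higher by as much (5.10%). The groups with and without DMD differed by 0.05 ± 0.06, within the noise.

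TLR1 and TLR6, the partners of TLR2, stayed close to their Ctrl levels. TLR1 read 2409 on Ctrl, 2263 on IMQ, and 2342 on IMQ+DMD, with a log2 difference of -0.09 ± 0.06 after IMQ. TLR6 read 169 on Ctrl, 169 on IMQ, and 171 on IMQ+DMD, with a log2 difference of -0.01 ± 0.14. Only TLR2 of these 3 genes differed from Ctrl by more than 2 times the noise. TLR10, which has no settled ligand, was not well above background on any array (8.91, 14.3, and 12.1), so no difference is given for it.

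TLR4, the receptor of lipopolysaccharide, was lower after IMQ in both of its probes. Probe A_32_P66881 read 2239 on Ctrl, 1172 on IMQ, and 1121 on IMQ+DMD, and probe A_24_P69538 read 989, 509, and 478. The log2 differences for IMQ against Ctrl were -0.93 ± 0.07 and -0.96 ± 0.08, or 1.91-fold and 1.94-fold lower. The probes lie at separate places of the transcript, and their differences lay within the noise of each other. With IMQ+DMD, TLR4 was 1.997-fold below Ctrl in the first probe, which stands for the gene and was marginally under the call, and 2.07-fold below it in the second. The differences between IMQ+DMD and IMQ were -0.06 ± 0.07 and -0.09 ± 0.09. After IMQ, 1021 of 19197 genes were lower by as much as TLR4 (5.32%).

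The 2 probes of TLR5, the flagellin receptor, gave different pictures. The brighter probe, A_33_P3263423, read 322 on Ctrl, 303 on IMQ, and 401 on IMQ+DMD, and TLR5 was 1.32-fold higher with IMQ+DMD than with IMQ by this probe (log2 difference 0.40 ± 0.09, 4.29 times the noise). The dimmer probe, A_23_P85903, read 23.0, 33.7, and 27.4, so it was lower with IMQ+DMD than with IMQ (-0.30 ± 0.35), a difference within its noise. For IMQ against Ctrl the probes also had opposite signs, at -0.08 ± 0.09 and 0.55 ± 0.35. The higher level with IMQ+DMD in the brighter probe kept its sign under all 6 scalings (0.37 to 0.67), whereas the sign of the dimmer probe changed among them.

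**Figure D2:**
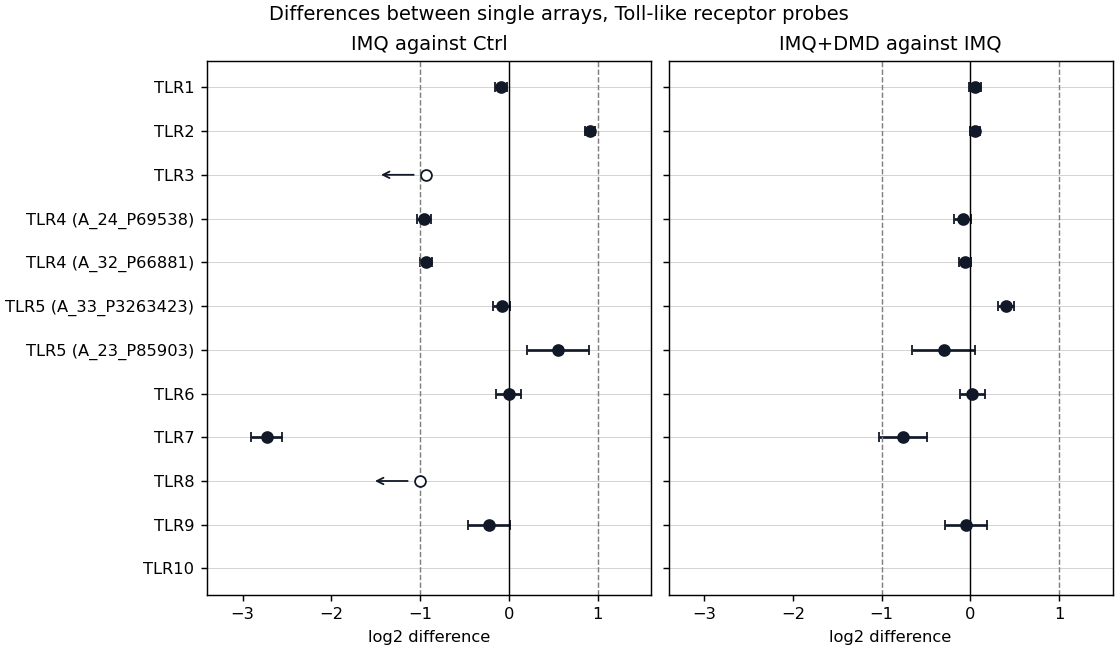
Log2 differences (x axis) of the receptor probes (rows) between single arrays, IMQ against Ctrl on the left and IMQ+DMD against IMQ on the right. Bars are the SD expected from repeated spots, open circles with arrows are bounds, dashed lines mark 2-fold, and rows without a symbol had no detected spot to compare. TLR7 (-2.73) lies alone beyond 2-fold on the left, and on the right no receptor passes 2-fold, with TLR7 at -0.76 and the brighter TLR5 probe at 0.40.

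Counted by genes, and with the probe of highest mean log2 intensity standing for each gene, 9 of the 10 receptors could be compared between IMQ and Ctrl. None was at least 2-fold higher (0, against 4.31% of the 19197 genes compared), and 1 was at least 2-fold lower (TLR7, against 4.6% of those genes). The median log2 difference of the 9 receptors was -0.22, beside -0.03 over all genes compared, and 8 of the 9 were below 0, as were 52.7% of all genes compared. Of those 8, TLR1, TLR5, TLR6, and TLR9 differed by at most 1.42 times the noise of repeated spots. Between IMQ+DMD and IMQ, 7 receptors could be compared and 0 passed 2-fold in either direction, where 0.716% of 19136 genes were higher and 0.915% lower. The median there was 0.02, beside -0.02 over all genes. The 3 comparisons share arrays and are not independent. Between IMQ+DMD and Ctrl, 0 of 9 receptors were at least 2-fold higher (3.43% of 19831 genes) and 3 were at least 2-fold lower (TLR3, TLR7, and TLR8, against 6.12%). For TLR3 and TLR8 the call rests on a spot below detection, and TLR4 missed it at 1.997-fold and passed it under 5 of the alternatives, 1 of them the 1.5-fold call.

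**Figure D3:**
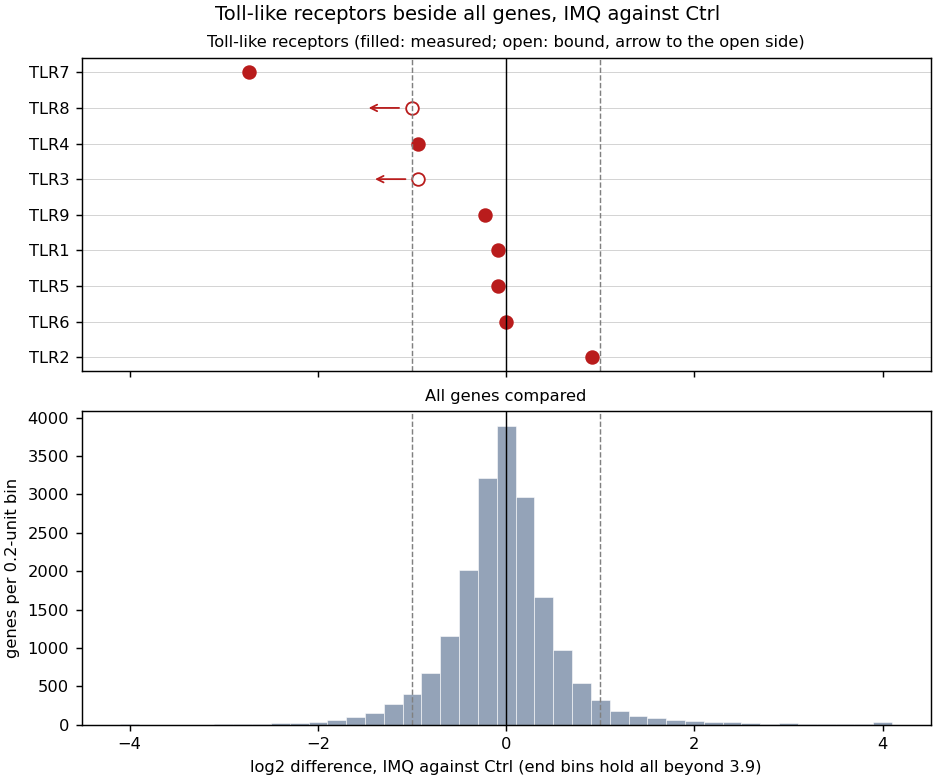
Upper panel, log2 difference of each receptor gene for IMQ against Ctrl, with bounds as open circles. Lower panel, the number of genes per bin of the same difference over the 19197 genes compared, with the end bins holding everything beyond them. TLR7 lies in the far left tail, TLR8, TLR4, and TLR3 lie near the lower 2-fold line, and TLR2 lies near the upper one.

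These counts moved with the scaling of the arrays. Without normalization between arrays the median log2 difference of genes detected on all arrays was -0.48 between IMQ and Ctrl and -0.39 between IMQ+DMD and Ctrl. With scaling to spike-in controls the medians were -0.62 and -0.36, and 0.14 between IMQ+DMD and IMQ. The share of the called genes that were higher after IMQ was 48.4% by the normalization of the authors, 11.8% without normalization, and 7.06% with spike-ins. The same share between IMQ+DMD and IMQ was 43.9%, and it was 83.4% with 75th percentile scaling, 86.0% without normalization, 95.1% with spike-ins, and 29.6% with normexp background correction. In the comparison of IMQ+DMD with Ctrl it was 35.9%, with 11.9% without normalization, and 13.3% with spike-ins. Relative to the median of genes under each of the 6 scalings, the log2 difference after IMQ was -2.83 to -2.05 for TLR7, -0.91 to -0.86 for the main probe of TLR4, and 0.92 to 1.08 for TLR2. The bounds of TLR3 and TLR8 ranged from -1.16 to -0.43 and from -1.22 to -0.41 on that relative scale. For the groups with and without DMD, TLR7 ranged from -0.74 to -0.35 and the brighter TLR5 probe from 0.39 to 0.52 relative to the median. On this relative scale 75th percentile scaling, no normalization, and spike-in scaling give the same value, since they differ by a constant per array. The repeated quantile normalization is nearly that of the authors, so these ranges rest on fewer than 6 separate scalings.

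**Figure D4:**
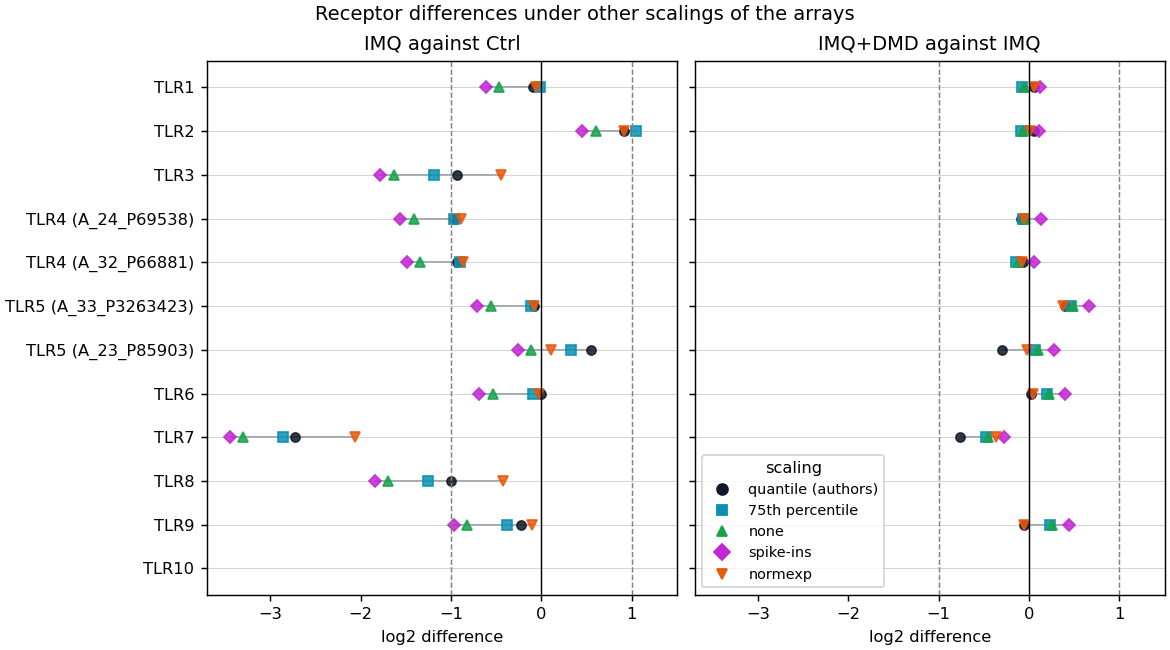
Log2 differences (x axis) of the receptor probes (rows) under the quantile normalization of the authors and other scalings, IMQ against Ctrl on the left and IMQ+DMD against IMQ on the right. Gray lines span all 6 scalings, with the quantile normalization repeated here not drawn as a symbol, dashed lines mark 2-fold, and the values of TLR3 and TLR8 are bounds. TLR7 is left of the 2-fold line after IMQ under every scaling (-3.45 to -2.07), and the spike-in and unnormalized values of all probes are shifted to the left in the left panel.

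Upstream sequence of 7 receptors was available from RefSeq (TLR2, TLR3, TLR4, TLR5, TLR6, TLR8, and TLR9). The 250 bases before each start were searched on both strands for 4 motifs of factors that act in activated or myeloid cells, and no matches overlapped. The PU.1 motif GAGGAAGT was found in 2 of these 7 (TLR4 and TLR9) and in 2.17% of the 35116 promoters of the same length in the table. The AP-1 motif TGANTCA was found in 1 (TLR9, 6.57% of promoters). The interferon regulatory factor motif of 2 GAAA stretches 2 bases apart (3.02%) was found in none (0 of 7). GGGNNTTCC, 1 form of the NF-kB motif (5.78%), was also found in none (0 of 7). NF-kB motifs with another spacing were not searched, so that 0 does not speak for NF-kB motifs in general. No upstream sequence was available for TLR7. TLR9 held the PU.1 motif at -9 to -2 from the start. TLR4 held it at 2 places, at -173 to -166 and at -101 to -94, both on the reverse strand and shown in capitals. Its upstream sequence is chr9:117704153-117704402 on the plus strand of GRCh38.p14.
TLR4 upstream: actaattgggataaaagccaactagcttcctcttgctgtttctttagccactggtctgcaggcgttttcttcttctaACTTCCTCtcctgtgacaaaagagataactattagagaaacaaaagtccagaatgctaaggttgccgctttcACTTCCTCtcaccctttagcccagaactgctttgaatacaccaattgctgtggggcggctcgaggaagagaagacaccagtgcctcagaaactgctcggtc
PU.1 is a transcription factor of myeloid cells, and its gene SPI1 was among the markers detected on every array. A match describes letters in this window and not a bound site.

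The genes around the receptors were taken from lists of co-receptors, trafficking and processing factors, adaptors, kinases and ubiquitin ligases, transcription factors, and inhibitors, of which 50 of 51 were found on the array. After IMQ, 5 of the 50 were at least 2-fold higher and 1 was at least 2-fold lower, beside 4.31% and 4.6% of all genes compared. Their median log2 difference was -0.03, the same as over all genes. Of the 50, 49 could be compared between IMQ+DMD and IMQ, and 0 passed 2-fold in either direction (0.716% and 0.915% of all genes), with a median of 0.01. Against Ctrl, IMQ+DMD had 5 higher and 2 lower, beside 3.43% and 6.12% of all genes.

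Of the co-receptors, all 6 were below 0 after IMQ, as were 52.7% of all genes, with a median log2 difference of -0.71 (-1.19 to -0.60 over the scalings). LBP, which brings lipopolysaccharide to CD14, was among them only by -0.09 ± 0.30, within the noise, and is named here after its value was seen. CD180 (RP105), a receptor relative that restrains TLR4, was lowest, at 329 on Ctrl, 69.6 on IMQ, and 107 on IMQ+DMD (-2.24 ± 0.18 after IMQ). It was higher with IMQ+DMD than with IMQ (0.62 ± 0.24), short of 2-fold, and above 0 under all 6 scalings (0.33 to 1.09). CD14, which hands lipopolysaccharide to TLR4, read 21875, 13399, and 9436. It was thus lower after IMQ (-0.71 ± 0.06) and lower again with IMQ+DMD than with IMQ (-0.51 ± 0.06), and at 2.32-fold below Ctrl it passed the call with IMQ+DMD. LY96, the lipopolysaccharide-binding partner of TLR4, read 6412, 3913, and 4342 (-0.71 ± 0.06 after IMQ, then 0.15 ± 0.06). TLR4 and both of its binding partners were therefore lower after IMQ, and only CD14 was lower again by more than 2 times the noise with IMQ+DMD.

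Of the 12 trafficking and processing factors, 1 was at least 2-fold higher after IMQ, beside 4.31% of all genes compared. That was LGMN (legumain), a lysosomal protease that can cleave endosomal receptors, at 65.7 on Ctrl, 232 on IMQ, and 176 on IMQ+DMD (1.82 ± 0.19 after IMQ). UNC93B1, the chaperone that carries TLR3, TLR7, TLR8, and TLR9 to endosomes, read 4086, 2487, and 2263. The log2 difference after IMQ was -0.72 ± 0.06, and its other 2 probes gave -1.01 and -0.77. The group with DMD differed from IMQ by -0.14 ± 0.06. Of the 5 adaptors none passed 2-fold (0). MYD88 had a log2 difference of -0.47 ± 0.07 after IMQ and -0.11 ± 0.07 between IMQ+DMD and IMQ, and TICAM1 had 0.24 ± 0.06 and 0.07 ± 0.06, with TICAM1 turning to -0.24 after IMQ under spike-in scaling.

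Of the 14 kinases and ligases, 1 was at least 2-fold higher after IMQ. The share of all genes compared was 4.31%, for this and the next lists. IRAK2, a kinase-like protein of the complex that forms on MYD88, read 361 on Ctrl, 5587 on IMQ, and 5140 on IMQ+DMD, which made it 15.5-fold higher after IMQ (3.95 ± 0.08). IRAK4, the first kinase of that complex, differed by 0.24 ± 0.12 after IMQ and turned to -0.40 with spike-ins, and TRAF6, the ubiquitin ligase that follows it, differed by -0.20 ± 0.07. Among the 5 transcription factors, NFKB1 was the one past 2-fold, at 2781, 8066, and 6688 (1.54 ± 0.06 after IMQ and -0.27 ± 0.06 between IMQ+DMD and IMQ). Of the 8 inhibitors, 2 passed it, and both restrain NF-kB through ubiquitin. TNFAIP3 (A20) read 1805, 6862, and 7453 (1.93 ± 0.07 after IMQ), and its partner TNIP1 read 4290, 18637, and 17293 (2.12 ± 0.06). IRAK3, which blocks signaling by the other IRAK proteins in monocytes, differed by 0.03 ± 0.09 and turned to -0.58 with spike-ins. IRAK2, NFKB1, TNFAIP3, TNIP1, and LGMN were higher after IMQ under all 6 scalings, by 3.46, 1.03, 1.41, 1.63, and 1.15 on the log2 scale with spike-ins.

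**Figure D5:**
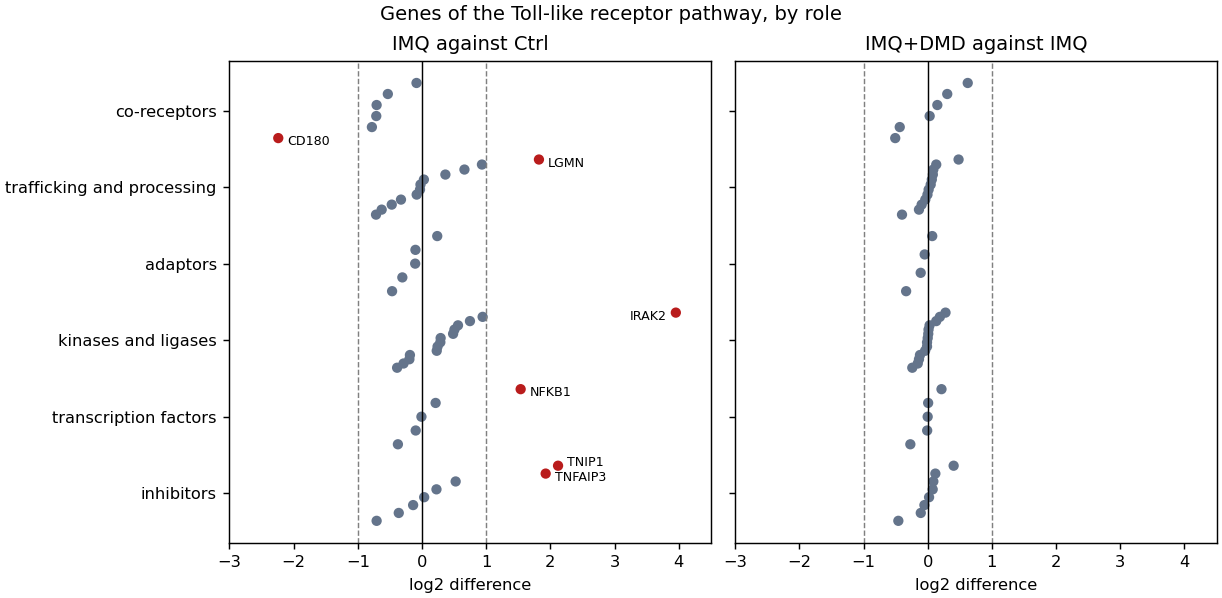
Log2 difference (x axis) of each gene of the Toll-like receptor pathway lists, grouped by role (rows) and spread vertically within a role for legibility, IMQ against Ctrl on the left and IMQ+DMD against IMQ on the right. Genes at least 2-fold higher or lower (dashed lines) are red and named. IRAK2 stands farthest to the right (3.95) and CD180 farthest to the left (-2.24) after IMQ, and no gene passes 2-fold on the right.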

How the data were processed

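RNA of 3 cultures of THP-1 macrophages was labeled with Cy3 and hybridized to 1 array each. The authors deposited the scanner output (Feature Extraction 10.5.1.1) and a table with the raw and the quantile-normalized intensity of each probe, and that raw intensity equaled the background-corrected intensity of the scanner for all 57901 probes with 1 spot. No column of sample values was left unused (0). Groups were taken from the sample titles. The receptors, the pathway lists, and the rules were chosen with earlier results of these data known.

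The normalized intensity was converted to log2. A probe not well above background on an array by the mark of the scanner software was raised to the floor of that array where it lay below it. Genes were compared where the probe was detected on at least the brighter array, and a gene counted as called at 2-fold or more. A difference against an undetected spot is a lower bound under the scaling and floor used. With 1 array per group no test was run, and precision is limited by the number of arrays. Quantile normalization pulls the arrays to 1 distribution and so removes any overall difference in RNA between groups. The noise of a difference was the median SD between the 10 spots of repeated probes (300 in all) in the same log2 bin of brightness, combined over the 2 arrays. The SD was taken before normalization between arrays, while most differences set beside it are normalized. Each bin pooled readings of all arrays. The bins below a log2 of 7 held 8 to 21 readings each, and the lowest pooled all levels below 4. Replicate spots do not cover culture, labeling, or hybridization.

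Alternatives were 75th percentile scaling, no normalization, scaling to 10 spike-in probes, quantile normalization repeated with limma 3.58.1 in R 4.3.3, normexp background correction with an offset of 50, no floor and no filter, detection on both arrays, the mean of all probes, the probe with the highest linear mean, and a 1.5-fold call. Named genes were all receptors with every probe, list genes past 2-fold in IMQ against Ctrl or in IMQ+DMD against IMQ, and UNC93B1, CD14, LY96, MYD88, TICAM1, IRAK4, TRAF6, and IRAK3. The normexp offset of 50 by itself draws dim intensities together, so smaller differences and fewer calls in that setting are partly built in. The procedure was tested on simulated data. Python 3.11.15, numpy 2.4.6, pandas 2.3.3, and matplotlib 3.10.9 were used. Probe positions are hg19 as in the scanner files. Upstream sequences and gene order are from RefSeq (GRCh38.p14). TICAM2, CD68, and LYZ, which were listed, were not matched by symbol and are not analysed here.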

Additional observations from a re-analysis of the deposited data

How the results depend on the processing

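No paired analysis was possible because there was 1 array per condition. Of 213 values of single receptor probes under the alternatives, 140 lay within the noise of repeated spots from the reported value and 73 moved by more, and 0 of the differences of 2-fold or more changed sign. Of 31 comparisons of receptor probes, 21 kept their sign under all 6 scalings. TLR7 was at least 2-fold lower in both treated groups than in Ctrl under every alternative run. For IMQ against Ctrl, the count of receptors at least 2-fold higher was 0 as reported and 1 (TLR2) with 75th percentile scaling or a 1.5-fold call. The count at least 2-fold lower was 1 (TLR7), 2 with quantile normalization repeated here (TLR7 and TLR8), 3 with 75th percentile scaling or with no floor and no filter (TLR3, TLR7, and TLR8), and 4 without normalization, with spike-ins, or with a 1.5-fold call (TLR4 as well). Between IMQ+DMD and IMQ the count lower was 0, and 1 with no floor and no filter (TLR8) or a 1.5-fold call (TLR7). With IMQ+DMD against Ctrl, the count higher was 0, and 1 with a 1.5-fold call (TLR2). The count lower there was 3, and 4 (TLR4 as well) with 75th percentile scaling, without normalization, with spike-ins, with the mean of all probes, or with a 1.5-fold call. It was 1 (TLR7) with normexp or with detection asked on both arrays, a filter that leaves out TLR3 and TLR8. Of the 50 pathway genes, 1 was lower after IMQ as reported, 6 without normalization, and 12 with spike-ins. Over all genes, 883 of 19197, 3071 of 19587, and 4368 of 19553 were lower in the same settings. Between IMQ+DMD and IMQ, 0 pathway genes were higher, and 1 (CD180) with spike-ins (936 of 19538 genes). Between IMQ+DMD and Ctrl, 2 pathway genes were lower, and 8 without normalization or with spike-ins. Over all genes, 1213 of 19831, 2639 of 19772, and 2448 of 19791 were lower in these settings. The causes were not tested. Over all genes, 828 were higher and 883 lower after IMQ as reported, and 410 and 3071 without normalization. They were 332 and 4368 with spike-ins, and 490 and 559 with normexp. With 75th percentile scaling 797 of 19460 genes were higher and 1007 lower. No floor and no filter gave 1260 and 1419 of 22705, and a 1.5-fold call 2045 and 2338 of 19197. Between IMQ+DMD and Ctrl, 1141 of 19769 were lower with 75th percentile scaling and 2796 of 19831 with a 1.5-fold call. The mean of all probes gave 1091 of 19841 there, and normexp 738 of 19828. For IMQ+DMD against IMQ, 137 were higher and 175 lower as reported, 936 and 48 with spike-ins, and 8 and 19 with normexp. Signal over background limits TLR3, TLR8, TLR10, and the dimmer TLR5 probe.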
